A study of Mus musculus with 8 samples.

Results

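Peaks over microRNA genes were examined in RNA immunoprecipitation data for the RNA-binding protein NONO from mouse liver nuclei. A peak was included when it overlapped by at least 1 bp a gene that the GENCODE M21 annotation of the mouse genome (mm10) classes as miRNA. Of the 206501 peaks in the 4 deposited lists, 345 met this rule. The fasted NONO list held 75 of them among 38209 peaks, the 2 h re-fed list 126 among 61737, the 10 h re-fed list 76 among 50609 and the IgG list 68 among 55946. The annotation holds 2202 miRNA genes, of which 231 lay under a peak of at least 1 list.

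Nuclei came from livers of wild type C57BL/6 mice aged 14 weeks. The light and dark phases lasted 12 h each, and food had been given in the dark phase alone for 1 week. NONO was immunoprecipitated in the fasted state at zeitgeber time (ZT) 10, after 2 h of re-feeding at ZT14 and after 10 h of re-feeding at ZT22, so feeding state and time of day changed together. The control was 1 immunoprecipitate with IgG, for which the labels give no feeding state or time. Each immunoprecipitate had its own input library of nuclear RNA. Each of the 8 libraries pooled 2 experiments, so no group had a replicate, no difference between lists has a replicate check, and no test was made.

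Library depth was 21032764 tags for fasted, 21091048 for 2 h, 18275033 for 10 h and 18995778 for IgG. A single IgG peak over the 7SK RNA gene Rn7sk took 37.5% of the IgG tags. Each peak had to reach 2-fold over its input, so an abundant RNA needs more than abundance to be listed. Of hepatocyte genes, Alb carried 0, 0, 1 and 2 peaks in the fasted, 2 h, 10 h and IgG lists, and Cps1, the first enzyme of the urea cycle, carried 8, 14, 17 and 15. Apoa1 and Serpina1a carried 0 peaks in every list, and Ttr carried 1 peak, in the IgG list. These counts describe enrichment and are no measure of which cells gave the RNA. Fewer cells of a type and less RNA per cell cannot be told apart in such bulk samples.

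MicroRNAs are short RNAs that pair with messenger RNAs and lower their translation and stability. They are cut from long nuclear transcripts, the primary miRNAs, in which the future miRNA forms one arm of a hairpin. The nuclear Microprocessor, built of the nuclease Drosha and its partner Dgcr8, cuts the hairpin out, and Dicer trims it in the cytoplasm. Many hairpins lie in introns of protein-coding genes, so the same nascent transcript carries both the messenger RNA precursor and the miRNA precursor. NONO is a protein of paraspeckles that pairs with Sfpq, and in human cells the pair has been described to bind many primary miRNAs. Bases 2 to 8 of the mature miRNA, the seed, set most of its target choice.

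Mature sequences are shown for the members on which the results turn. They are taken from RefSeq (GRCm38.p6), in which 135 of the 231 miRNA genes, and 32 of the 47 genes with a NONO peak at all 3 times, were matched by symbol. Seeds are in capitals and the sequences run 5′ to 3′. The let-7 family, with miR-98, shared the seed GAGGUAG, and 6 of its genes had a NONO peak at every time.
let-7b-5p: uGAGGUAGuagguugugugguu
let-7c-5p: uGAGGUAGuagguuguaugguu
let-7d-5p: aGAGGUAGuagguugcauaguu
let-7f-5p: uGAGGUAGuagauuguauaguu
let-7g-5p: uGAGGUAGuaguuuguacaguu
miR-98-5p: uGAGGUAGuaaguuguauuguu

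The miR-29, miR-30, miR-15/16, miR-103 (with miR-107) and miR-148 families were each present through more than 1 locus, so the same seed recurs in transcripts from separate parts of the genome.
miR-29a-3p: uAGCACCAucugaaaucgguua
miR-29b-3p: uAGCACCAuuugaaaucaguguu
miR-29c-3p: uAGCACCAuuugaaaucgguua
miR-30a-5p: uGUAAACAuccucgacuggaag
miR-30c-5p: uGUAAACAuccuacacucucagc
miR-30e-5p: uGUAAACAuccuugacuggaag
miR-15a-5p: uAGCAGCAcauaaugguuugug
miR-16-5p: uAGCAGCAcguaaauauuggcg
miR-103-3p: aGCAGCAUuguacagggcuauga
miR-107-3p: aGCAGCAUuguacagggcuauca
miR-148a-3p: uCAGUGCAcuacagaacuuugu
miR-148b-3p: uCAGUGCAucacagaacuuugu

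The most tagged member (miR-21a), 2 intronic miRNAs with opposite orders of the times (miR-33 and miR-101b) and 2 members of the cluster that had no peak at 10 h (miR-17 and miR-20a) complete the set.
miR-21a-5p: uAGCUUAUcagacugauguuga
miR-33-5p: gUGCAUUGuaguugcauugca
miR-101b-3p: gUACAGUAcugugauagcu
miR-17-5p: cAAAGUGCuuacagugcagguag
miR-20a-5p: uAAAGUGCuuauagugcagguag

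For 3 intronic members the whole hairpin is shown on its own strand, with the mature arm in capitals, since the peaks extend over precursor or intron sequence beyond the mature arm. The hairpins lie at chr15:82198122-82198190 (Mir33, plus strand), chr19:29135279-29135375 (Mir101b, plus strand) and chr19:34820687-34820773 (Mir107, minus strand) of GRCm38.
Mir33: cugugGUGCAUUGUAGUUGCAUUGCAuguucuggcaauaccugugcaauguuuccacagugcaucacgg
Mir101b: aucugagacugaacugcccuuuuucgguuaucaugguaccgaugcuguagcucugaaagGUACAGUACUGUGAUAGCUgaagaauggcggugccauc
Mir107: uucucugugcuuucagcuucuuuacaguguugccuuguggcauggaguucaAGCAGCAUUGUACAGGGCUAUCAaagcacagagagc

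In the fasted list NONO peaks covered 94 miRNA genes, at 2 h 157 and at 10 h 93, and IgG peaks covered 76. As shares of the 2202 genes these were 4.27% (95% exact interval 3.46 to 5.2) in fasted, 7.13% (6.09 to 8.29) at 2 h, 4.22% (3.42 to 5.15) at 10 h and 3.45% (2.73 to 4.3) in IgG. All intervals here cover counting error only. The 2 h list therefore covered the most miRNA genes and was also the longest list. The share of a list's peaks that lay over miRNA genes was 0.196% (fasted), 0.204% (2 h), 0.15% (10 h) and 0.122% (IgG). Among all other annotated genes, which have a median length of 3772.5 bp against 89 bp for miRNA genes, 14.3% lay under a fasted peak, 18.2% under a 2 h peak, 17.1% under a 10 h peak and 18.2% under an IgG peak.

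The lists differed most for miRNA genes with an established name. Of 1174 genes with a Mir symbol, 72 (6.13%) lay under a fasted peak, 125 (10.6%) under a 2 h peak, 73 (6.22%) under a 10 h peak and 51 (4.34%) under an IgG peak. The other 1028 genes, mostly predicted models with Gm symbols, had 22, 32, 20 and 25 members under a peak in the same order of lists, so their IgG count stood within the range of the NONO counts. One of them, Snord43, carries a small nucleolar RNA name and lay under an IgG peak alone, with 23.7 normalised tags, a name singled out after its values were seen.

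A total of 47 miRNA genes lay under a NONO peak at all 3 times, 2.13% of those annotated, against 11.1% of all other, longer genes. They made up 39 separate loci when genes within 10000 bp were joined. Of the 47, 40 have a Mir symbol. No IgG peak overlapped the gene in 38 of them (80.9%), against 9.36% of the other genes with a NONO peak at all 3 times. Gene length differs between these sets, and a long gene has more room for an IgG peak. Among short genes, 7 of 1558 small nucleolar and Cajal body RNA genes (0.449%) had a NONO peak at all 3 times, and 3 of the 7 had no IgG peak. For small nuclear RNA genes the counts were 11 of 1383 (0.795%) and 6. For miscellaneous RNA genes, with a median length of 265.5 bp, they were 2 of 562 (0.356%) and 2.

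Counted by peak and not by gene, miRNA peaks were no more often free of IgG than other peaks. Of the NONO peaks over miRNA genes, 47 of 75 (62.7%, interval 50.7 to 73.6) met no IgG peak in fasted, 65 of 126 (51.6%, interval 42.5 to 60.6) at 2 h and 45 of 76 (59.2%, interval 47.3 to 70.4) at 10 h. Over all peaks of these lists the shares were 66.3%, 60.7% and 60.5%. Every NONO peak was free of IgG for 21 of the 47 genes. For 17 more genes no IgG peak lay over the hairpin, but an IgG peak met a NONO peak over it. With a margin of 1000 bp around the gene, 28 of the 47 had no IgG peak.

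The number of genes depended on the authors' fold over input. With only peaks of at least 3-fold, the counts were 29 (fasted), 68 (2 h), 30 (10 h) and 44 (IgG), so the IgG count then stood above the fasted and 10 h counts, and 9 genes kept a peak at all 3 times. The background share of all peaks at 3-fold or more was 44.4% (fasted), 53.9% (2 h), 43.6% (10 h) and 73.8% (IgG). Among the miRNA peaks it was 34.7%, 44.4%, 35.5% and 58.8%, lower than the background in every list. The 9 genes were Gm22328, Mir103-1, Mir33, Mir351, Mir361, Mir503, Mir5619, Mir98 and Mirlet7f-2.

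The peaks over miRNA genes carried more tags than the average peak. Tags are given as the authors normalised them, per 10000000 tags of the library. The median over miRNA genes was 38.0 normalised tags in fasted, 51.9 at 2 h, 46.5 at 10 h and 23.7 in IgG, against 17.1, 17.1, 18.1 and 11.1 over all peaks of those lists. They were also wider, with medians of 1280 bp (fasted), 1660 bp (2 h), 1220 bp (10 h) and 816 bp (IgG) against 625, 720, 643 and 646 bp over all peaks. A wide peak meets the 1 bp rule more easily than a narrow one. The greater width, and the tags that come with it, were thus partly set by the selection. Per kb of peak, the medians were 43.3, 28.5, 36.5 and 20.4 normalised tags over miRNA genes against 25.6, 20.8, 25.2 and 15.4 over all peaks. The median fold over input was 2.67 (fasted), 2.85 (2 h), 2.55 (10 h) and 3.33 (IgG), below the medians of 2.82, 3.13, 2.84 and 4.16 over all peaks. IgG peaks over miRNA genes thus differed from the average IgG peak in the same directions as NONO peaks did.

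**Figure D1:**
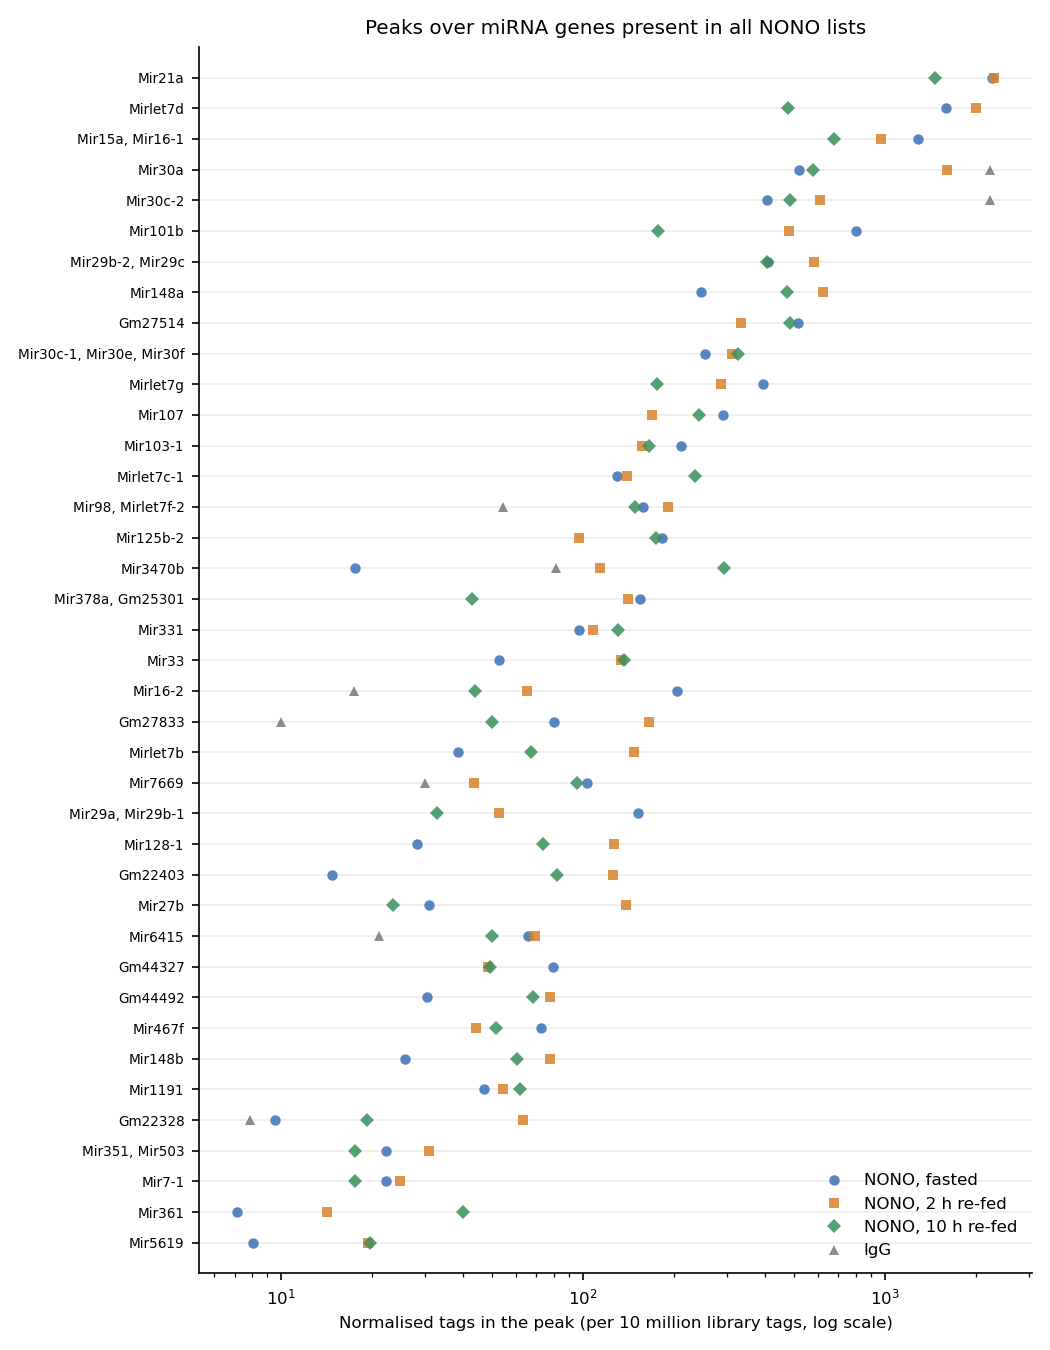
Normalised tags (per 10000000 library tags, log scale) of the peaks over the 47 miRNA genes with a NONO peak at all 3 times, 1 row per shared set of peaks, with circles for fasted, squares for 2 h, diamonds for 10 h and triangles for IgG. Mir21a stands highest at each NONO time and has no IgG point, and 9 of the 47 genes have one, with Mir30a and Mir30c-2 the only IgG points above every NONO point of their row.

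Of the lists of miRNAs by role, those of metabolism, let-7 and growth were most often under NONO peaks. The metabolic list of 25 genes had 15 under a fasted peak, 20 under a 2 h peak, 13 under a 10 h peak and 2 under an IgG peak. The list of let-7 genes and the miRNAs encoded with them had 9, 11, 10 and 1 of 18 in the same order, with Mirlet7j and Mirlet7k not annotated. The list of growth clusters, which holds the clusters of miR-15 and miR-16, of miR-17 to miR-92 and of miR-23, among others, had 9, 13, 6 and 1 of 16. The liver-enriched list had 4, 7, 3 and 2 of 13. Over all 2202 miRNA genes the counts were 94, 157, 93 and 76. The lists name well-studied miRNAs, were written with results of these data known, and hold clustered genes that share a peak.

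These list counts leaned on peaks below 3-fold. At 3-fold or more, the metabolic list held 2, 12, 2 and 0 genes under fasted, 2 h, 10 h and IgG peaks, the let-7 list 4, 7, 2 and 0, and the growth list 0, 4, 1 and 1. With every list cut to the number of peaks of the shortest, the metabolic counts were 15, 15, 9 and 2. Without peaks wider than 5000 bp, a choice added after seeing the data, the metabolic counts were 15, 13, 13 and 0 and the let-7 counts 9, 6, 10 and 1, while the growth counts stayed at 9, 13, 6 and 1 and the liver-enriched counts at 4, 7, 3 and 2. The widest miRNA peak was 4688 bp in fasted and 4785 bp at 10 h against 9795 bp at 2 h, so among NONO lists this choice could lower the 2 h counts alone.

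**Figure D2:**
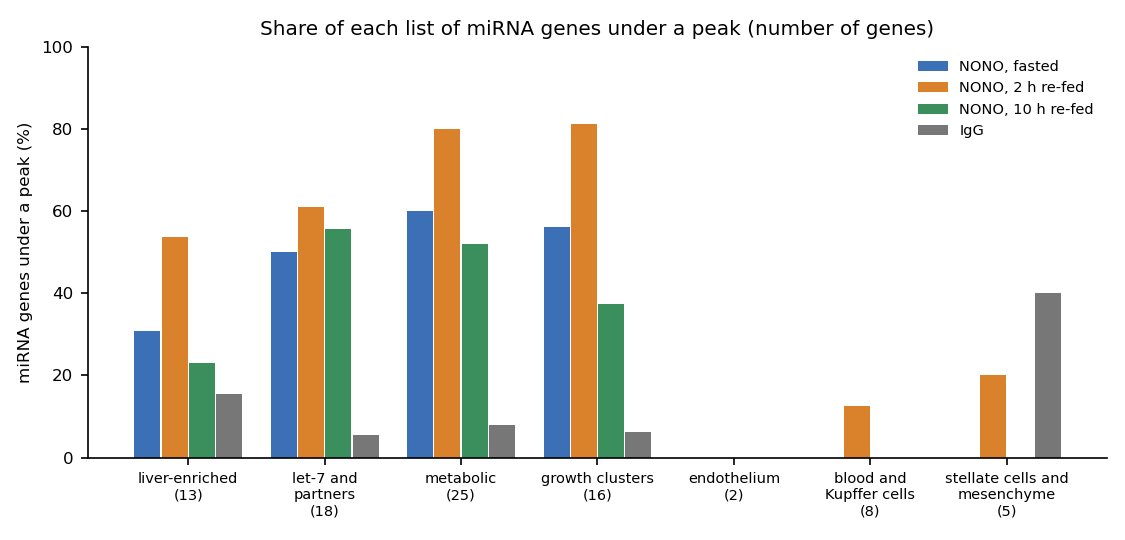
Percent of each list of miRNA genes under at least 1 peak, with bars for the fasted, 2 h, 10 h and IgG lists from left to right and the number of annotated genes under each name. The metabolic, let-7, growth and liver-enriched lists have every NONO bar above their IgG bar. The lists for endothelium, blood and Kupffer cells, and stellate cells and mesenchyme each have at most 1 gene under a NONO peak.

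Each list of markers of other liver cells had at most 1 gene under a NONO peak. Over all miRNA genes the share under a peak was 4.27% in fasted, 7.13% at 2 h and 4.22% at 10 h. Lists this small cannot show a lack of peaks against such shares. Both miR-126 genes of endothelium had no peak in any list. Of 8 miRNA genes of blood and Kupffer cells, Mir223, the myeloid miRNA, had a 2 h peak with 17.1 normalised tags, and the other 7 had no peak. One of these, Mir142b, stood 23 bp from a 2 h peak of 96.7 normalised tags. Of 5 genes of stellate cells and mesenchyme, Mir143 had a 2 h peak with 43.6 normalised tags, and an IgG peak with 147.4 normalised tags covered Mir143 and its neighbour Mir145a. The part of these cell types in the other peaks was not tested.

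Mir21a, a growth-associated miRNA that is abundant in liver, lay under the most tagged miRNA peak of each NONO list. Its hairpin (chr11:86584067-86584158, minus strand) lies in the 3′ untranslated part of the last exon of Vmp1, a gene of autophagy. The peak held 2262.7 normalised tags in fasted, 2302.4 at 2 h and 1463.2 at 10 h, at 2.4-fold, 2.77-fold and 2.56-fold over input, and the nearest IgG peak lay 3869 bp away with 7.9 normalised tags. The hairpin stood 516, 1728.5 and 1330.5 bp 5′ of the peak centre on its own strand at these times. The peak was wider after re-feeding, 4790 bp at 2 h and 3998 bp at 10 h against 2423 bp in fasted, with the added length on the 3′ side.

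Mir148a, which targets the low-density lipoprotein receptor messenger, and Mir101b were the other liver-enriched miRNAs with a NONO peak at all times. Mir148a (chr6:51269812-51269910, minus strand) has no annotated host on its strand, and its peak held 246.3 normalised tags in fasted, 621.6 at 2 h and 475.5 at 10 h. The nearest IgG peak lay 184245 bp away. Mir101b lies in intron 8 of Rcl1, whose protein acts in ribosomal RNA processing, and its peak held 803.5, 479.8 and 177.3 normalised tags. The input tags at the Mir101b peak, 295.4 in fasted, 179.03 at 2 h and 81.33 at 10 h, had the same order.

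The most abundant liver miRNA had no peak. Mir122 lay 30480 bp from the nearest fasted peak, 2129 bp from the nearest 2 h peak, 17614 bp from the nearest 10 h peak and 660 bp from the nearest IgG peak. Mir192 and Mir194-2, neighbours on chromosome 19, also had none, although 2 h and 10 h peaks of 556.2 and 368.8 normalised tags ended 410 and 523 bp short of Mir194-2. Mir22, Mir101a and Mir802 had none either. Mir194-1 and Mir215 shared a 2 h peak of 9.01 normalised tags, close to the lowest of that list's miRNA peaks, 5.22. A gene without a peak is one whose RNA was not called enriched over input, which does not mean that its RNA was missing.

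Among let-7 genes, which restrain growth regulators such as Lin28 and Hmga2, Mirlet7d had the most tags. Mirlet7d lies in an exon of the non-coding RNA 6720427I07Rik (chr13:48536012-48536114, minus strand), and its peak held 1598.9 normalised tags in fasted, 2007.5 at 2 h and 479.3 at 10 h. The fasted and 2 h peaks, of 3285 and 6935 bp, also covered Mirlet7a-1 and Mirlet7f-1 of the same transcript, while the 10 h peak, of 944 bp, ended 1307 bp before Mirlet7a-1. No IgG peak lay closer than 6599 bp to Mirlet7a-1. The predicted gene Gm24111 lies over Mirlet7f-1 on the opposite strand and took the same peaks.

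Mirlet7g, in intron 2 of Wdr82, a subunit of histone methyltransferase complexes, had 393.2 normalised tags in fasted, 286.9 at 2 h and 176.2 at 10 h. Mirlet7c-1 and Mir125b-2 both lie in intron 7 of the non-coding host Mir99ahg. Mirlet7c-1 had 129.3, 139.4 and 234.2 normalised tags and Mir125b-2 had 183.0, 97.2 and 174.0, with no IgG peak over either hairpin, although one met the Mirlet7c-1 peak at 2 h and the Mir125b-2 peak at every time. Mir99a, next to Mirlet7c-1, shared its peak at 2 h and 10 h. The let-7 pair of Lncppara, a non-coding RNA, differed, since Mirlet7b had 38.5, 147.9 and 67.3 normalised tags while Mirlet7c-2 was reached by the 2 h peak alone.

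Mirlet7f-2 and Mir98 lie in intron 59 of Huwe1, a ubiquitin ligase gene on the X chromosome, under 1 peak of 157.4 normalised tags in fasted, 190.6 at 2 h and 148.3 at 10 h. Its fold over input, 4.04, 8.32 and 3.67, was above 3 at each time. An IgG peak of 54.2 normalised tags lay over Mir98, centred 2 bp from it. In Huwe1 the miRNA peak was second by tags at each NONO time, with 380.8, 757.2 and 692.2 normalised tags in the first.

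Of the 5 let-7 genes and partners without any peak, Mirlet7i missed by a short distance. NONO peaks ended 256 bp (fasted), 225 bp (2 h) and 306 bp (10 h) from it with 12.4, 58.8 and 14.2 normalised tags, and the nearest IgG peak lay 18247 bp away. Mirlet7a-2, Mir99b, Mir100 and Mir125b-1 were the others. Mirlet7e was at the edge of the rule, since its 10 h peak of 18.1 normalised tags overlapped it by 1 bp. On the other side of the edge, Mir7661 stood 2 bp from a fasted peak of 11.4 normalised tags and Mir29b-1 stood 2 bp from an IgG peak of 9.48 normalised tags.

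Mir33 lies in intron 16 of Srebf2, the gene of the transcription factor that drives cholesterol synthesis, and miR-33 lowers the cholesterol exporter Abca1. Its peak held 52.8 normalised tags in fasted, 133.7 at 2 h and 136.8 at 10 h, with input tags of 11.58, 19.43 and 25.24. Fold over input was 4.56, 6.88 and 5.42, among the few members over 3-fold at each time. The peak began near the hairpin and ran 3′ of it, and at 2 h and 10 h its first base (82198145 and 82198150 as deposited) lay inside the hairpin, past the start of the mature arm printed above. An IgG peak of 29.0 normalised tags began 75 bp downstream of the hairpin and overlapped the NONO peaks, so the RNA 3′ of Mir33 was also in the IgG list.

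Mir107 and Mir103-1 lie in intron 5 of Pank1 and intron 5 of Pank3, genes of pantothenate kinases, which start coenzyme A synthesis. The mature miRNAs printed above are nearly alike and have been tied to insulin sensitivity in mice. Mir107 had 291.0 normalised tags in fasted, 169.7 at 2 h and 241.3 at 10 h, and Mir103-1 had 211.1, 156.9 and 165.8. The family's other copy, Mir103-2 in intron 5 of Pank2, had a peak at 2 h alone, 6857 bp wide with 315.8 normalised tags at 2.44-fold. No IgG peak lay over any of these 3 hairpins, although one met each Mir103-1 peak and the Mir103-2 peak.

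Mir378a, in intron 1 of the coactivator gene Ppargc1b, had 154.0 normalised tags in fasted, 140.8 at 2 h and 42.7 at 10 h. The 10 h peak ended inside the hairpin. No IgG peak met any of the 3 peaks. The predicted gene Gm25301 lies over it on the other strand and took the same peaks.

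The miR-29 family lay in 2 clusters with different records. Mir29b-2 and Mir29c, in an exon of the non-coding RNA A330023F24Rik, had 409.4 normalised tags in fasted, 584.6 at 2 h and 407.7 at 10 h, the last 2 met by an IgG peak away from the hairpins. Mir29a and Mir29b-1, with no annotated host, had 152.1, 52.6 and 32.8, and an IgG peak met each of these peaks. The seed is the same in both clusters, so a seed-level total would mix these patterns.

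The miR-30 family showed the strongest IgG signal. Mir30e and Mir30c-1 share a peak in intron 5 of Nfyc, a subunit of a CCAAT-binding factor, with 252.9 normalised tags in fasted, 312.0 at 2 h and 326.1 at 10 h. An IgG peak met this peak at each time, though not over either hairpin. Mir30a had 518.2, 1606.8 and 577.8 normalised tags, and Mir30c-2 had 406.0, 607.8 and 483.2, but a single IgG peak 27692 bp wide covered both genes with 2233.1 normalised tags. Mir30d and Mir30b lay under a 2 h peak of 505.4 normalised tags, and Mir30b also under a fasted peak of 32.8. An IgG peak met the 2 h peak, though not over either hairpin. IgG peaks thus lay over Mir30a and Mir30c-2 but not over Mir30e, Mir30c-1, Mir30d or Mir30b, which encode the same seed.

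Mir27b and Mir23b, in intron 15 of 2010111I01Rik, shared peaks of 138.4 normalised tags at 2 h and 23.5 at 10 h. In fasted, a peak of 30.9 normalised tags covered Mir27b alone. Its 2 h fold over input was 2.00, the lowest that the authors' rule admits.

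Growth clusters differed in the times at which they had NONO peaks. Mir15a and Mir16-1, which restrain the cell cycle, lie in intron 4 of the non-coding host Dleu2 and had 1292.7 normalised tags in fasted, 974.8 at 2 h and 680.2 at 10 h, each met by an IgG peak that left the hairpins free. The other copy of Mir16-1, Mir16-2 in intron 5 of the condensin gene Smc4, had 204.9, 65.4 and 43.8, with 17.4 normalised tags in an IgG peak over it. Mir15b had no peak in any list. The miR-17 to miR-92 cluster of Mir17hg, 6 hairpins, lay under 1 peak of 75.6 normalised tags in fasted and 1 of 81.1 at 2 h. At 10 h the nearest peak lay 3889 bp from Mir17, and the nearest IgG peak 5295 bp from it. Mir221 and Mir222 shared a peak at 2 h and another at 10 h.

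Outside the lists, several members were present in the NONO lists at low or middle levels. Mir7-1, in intron 17 of Hnrnpk, had 22.3, 24.7 and 17.5 normalised tags at the 3 times in peaks of 500 bp, centred 19.5, 4.5 and 12.5 bp from the hairpin centre. No other of the 40 Mir genes had its hairpin within 19.5 bp of the peak centre at all 3 times, while the IgG list has a peak of 509.1 normalised tags elsewhere in Hnrnpk. Mir503 and Mir351, neighbours on the X chromosome, shared peaks of 22.3, 30.8 and 17.5 normalised tags, with folds of 14.16, 5.16 and 4.16. The fasted input there held 1.57 tags, so that fold rests on a small denominator. Mir331, in an untranslated exon part of Vezt, had 97.0, 108.1 and 130.2, and Mir148b, in intron 1 of Copz1, had 25.7, 77.8 and 60.2. Mir1894, in intron 2 of Ppp1r10, had 1465.8 in fasted and 1249.8 at 2 h, and no 10 h peak covered it.

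Other members at all 3 times were Mir128-1 in intron 19 of R3hdm1 with 28.1, 127.1 and 73.9 normalised tags, and Mir361 in intron 9 of Chm with 7.13, 14.2 and 39.9. Mir1191, in an untranslated exon part of BC024978, had 47.1, 54.1 and 61.8, and Mir5619 in intron 1 of Nudt9 had 8.08, 19.4 and 19.7. An IgG peak also lay over Mir7669, Mir6415, Mir3470b, Gm27833 and Gm22328. With Mir30a, Mir30c-2, Mir98 and Mir16-2 these are the 9 genes with peaks in all 4 lists. Mir467f and Mir3470b belong to families with many near-identical copies, so their tags may come from other copies and are uncertain. The predicted genes Gm27514, Gm44492, Gm44327 and Gm22403 had no IgG peak over them, and Gm27514 had the most tags of these, 516.3, 333.8 and 485.4. An IgG peak nevertheless met the NONO peaks over Gm27514 and Gm22403 at every time.

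**Figure D3:**
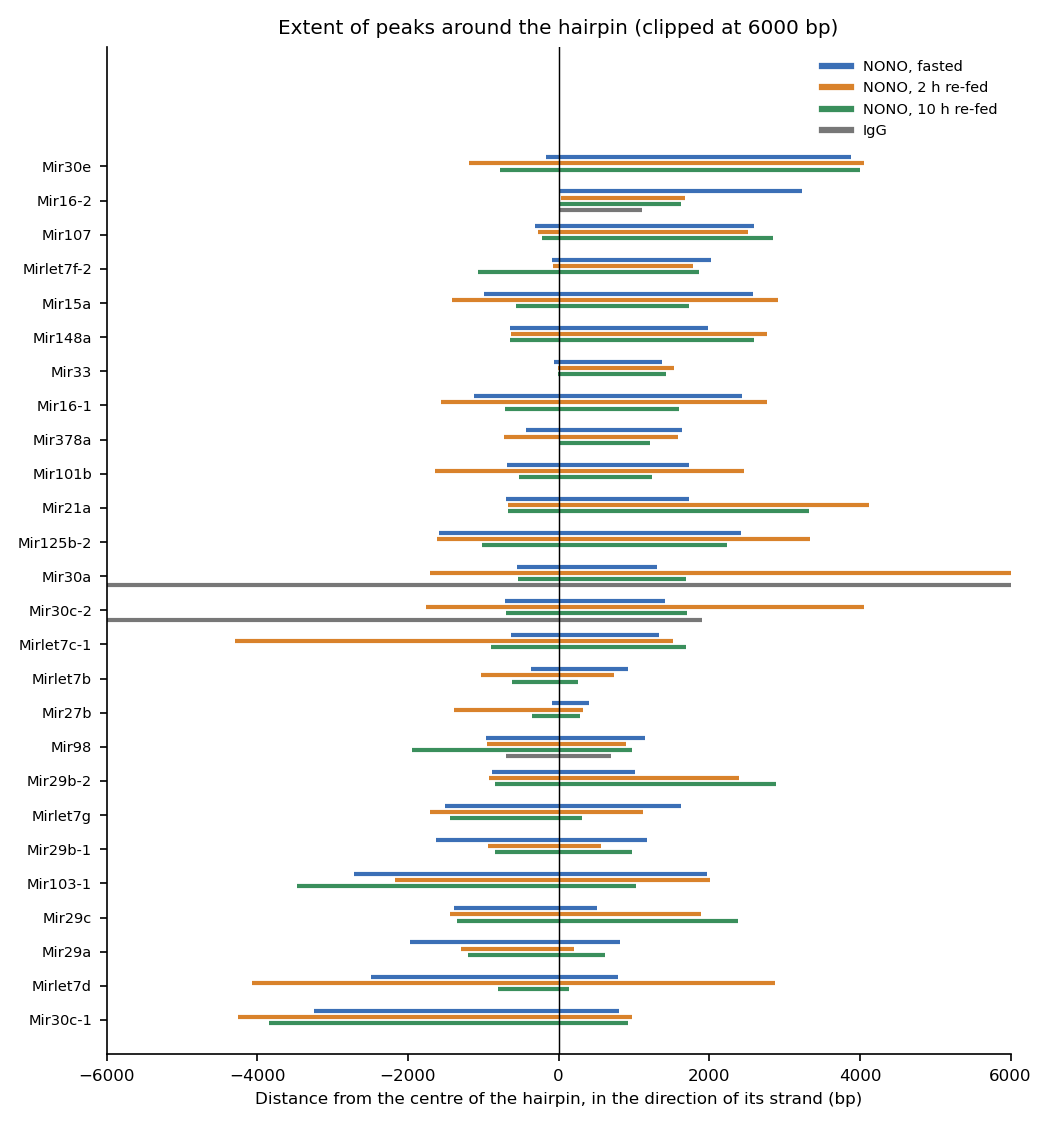
Extent of the peaks over the miRNA genes of the role lists that had a NONO peak at all 3 times, as distance in bp from the centre of the hairpin in the direction of its strand, clipped at 6000 bp, with lines from top to bottom for fasted, 2 h, 10 h and IgG. Peaks run to both sides of most hairpins, those over Mir107 and Mir33 run mainly 3′ of it, and those over Mir30c-1 and Mirlet7d in fasted run mainly 5′ of it.

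Most peaks covered the whole hairpin, in 82 of 94 pairs of peak and gene in fasted, 139 of 157 at 2 h, 76 of 93 at 10 h and 61 of 76 in IgG. The median distance between hairpin centre and peak centre was 324 bp (fasted), 350 bp (2 h), 337 bp (10 h) and 230 bp (IgG), and the IgG peaks were narrower. Within 250 bp of the peak centre lay 42.6%, 38.9%, 33.3% and 52.6% of the hairpins in the same order. Among peaks over Mir genes on 1 strand, the hairpin lay 5′ of the peak centre in 36 of 55 (fasted), 53 of 92 (2 h), 33 of 55 (10 h) and 27 of 45 (IgG). The NONO shares were therefore close to the IgG share. Of the 40 Mir genes at all 3 times, 19 were 5′ of the centre in all 3 lists and 8 were 3′ of it in all 3.

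Most of the miRNA genes under peaks lay inside another gene on the same strand. The share was 69.1% (fasted), 73.9% (2 h), 64.5% (10 h) and 71.1% (IgG). The IgG share thus lay within the range of the NONO shares. The like share over all annotated miRNA genes is not given here. Whether genes under peaks had a host more often than other miRNA genes was not tested. By list, 48 (fasted), 93 (2 h), 50 (10 h) and 46 (IgG) genes lay in an intron, an exon held 17, 23, 10 and 8, and 29, 41, 33 and 22 had no host. The authors' peaks join both strands, so hairpin, host and antisense RNA cannot be told apart. Of the miRNA genes, 10 pairs overlapped each other on opposite strands.

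In hosts with several peaks, the miRNA peak was more often the most tagged in NONO lists than in the IgG list. Among protein-coding hosts with at least 2 peaks, it ranked first in 18 of 36 (50.0%) in fasted, 27 of 73 (37.0%) at 2 h, 17 of 37 (45.9%) at 10 h and 8 of 41 (19.5%) in IgG. The hosts differed between the lists, and the miRNA peaks of the NONO lists were wider than those of the IgG list. Ranks by total tags do not allow for width, and ranks by tags per kb were not computed for IgG. The difference between the lists was not tested. Of the 21 protein-coding hosts of miRNA genes with NONO peaks at all 3 times, 17 had at least 2 peaks each time, and in 9 of these the miRNA peak was first each time. The 9 hosts were Nfyc, Pank1, Pank3, Ppargc1b, Rcl1, Srebf2, Vezt, Vmp1 and Wdr82. Ranked by tags per kb of peak, a choice added after seeing the data, 6 of these 9 hosts kept the miRNA peak first and Nfyc, Pank1 and Pank3 did not.

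The lead of the miRNA peak over the next peak of its host varied between hosts and times. In Vmp1 the next peak held 283.8 normalised tags in fasted, 113.8 at 2 h and 88.1 at 10 h, so the Mir21a peak held 7.97, 20.2 and 16.6 times as many. All these ratios are of total tags and do not allow for peak width. In Pank3 the ratios were 9.47, 13.2 and 8.91, and in Srebf2 they were 6.94, 8.05 and 7.35. The Pank3 miRNA peak was 4688, 4182 and 4499 bp wide against at most 750 bp for the other peaks of Pank3. By tags per kb it was second at 10 h. In Rcl1 the ratios were 4.26, 5.88 and 11.2. Pank1 differed between times, with ratios of 8.39 in fasted, 1.5 at 2 h and 1.6 at 10 h. In Ubap2l, Huwe1, 2010111I01Rik, R3hdm1 and Foxp1, hosts of Mir7669, of Mir98 with Mirlet7f-2, of Mir27b, of Mir128-1 and of Gm22328, another peak was higher at every NONO time.

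Each of the 9 hosts also had IgG peaks, from 3 in Wdr82 to 17 in Nfyc, none of them over the hairpin. The IgG peaks of the 9 hosts held at most 92.1 normalised tags, in Nfyc. In Srebf2, Pank3 and Nfyc an IgG peak met the miRNA peak itself at every NONO time, though not over the hairpin. In Rcl1 the most tagged IgG peak had 75.3 normalised tags and lay 7496 bp from Mir101b. Among non-coding hosts, Dleu2 had the Mir15a and Mir16-1 peak first among 14, 20 and 13 NONO peaks, with no IgG peak over these hairpins among 16 IgG peaks. An IgG peak nevertheless met this miRNA peak at every NONO time.

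**Figure D4:**
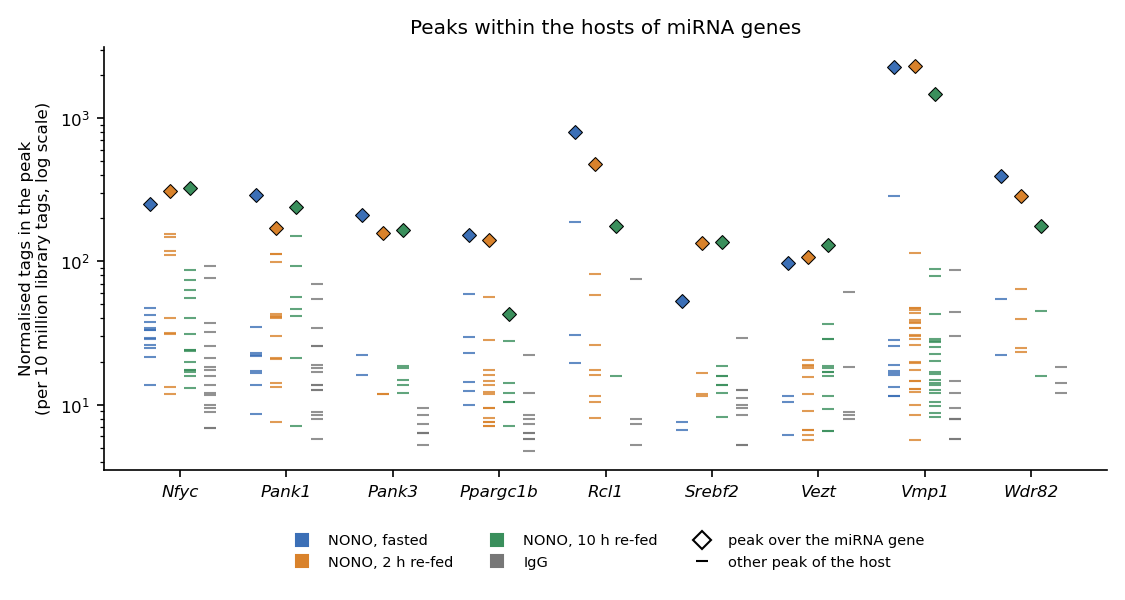
Normalised tags (per 10000000 library tags, log scale) of every peak in the 9 protein-coding hosts whose miRNA peak was the most tagged at each NONO time, with diamonds for the peak over the miRNA gene, dashes for other peaks of the host, and columns for fasted, 2 h, 10 h and IgG from left to right. In Vmp1, Pank3 and Srebf2 the diamond has at least 6.94 times the total tags of the next dash, without allowance for peak width. No IgG column has a diamond, although an IgG peak overlapped the NONO miRNA peak in Pank3, Srebf2 and Nfyc.

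Times differed for single members. Over the 39 separate peak sets, normalised tags per kb were higher at 2 h than in fasted in 12, higher at 10 h than in fasted in 13 and higher at 10 h than at 2 h in 19. Over all peaks of the lists, the median normalised tags per kb were 25.6 in fasted, 20.8 at 2 h and 25.2 at 10 h. Density over all peaks was thus also lower at 2 h than in fasted. Across the 39 sets, the median log2 ratio was -0.29 for 2 h over fasted and -0.23 for 10 h over fasted. It was -0.02 for 10 h over 2 h. The same ratios of the inputs were -0.35, -0.22 and 0.08, and immunoprecipitate and input moved in the same direction in 33, 35 and 28 of the 39 sets. Both densities are divided by the same peak width, and each peak had to reach 2-fold over input. A shared direction was thus partly built in, and a link to the input was not tested. Mir33 had higher density after re-feeding, 86.87 normalised tags per kb at 2 h and 95.73 at 10 h against 36.79 in fasted, with input densities of 12.63, 17.66 and 8.07. Mir101b had lower density, 117.02 at 2 h and 100.68 at 10 h against 333.13 in fasted, with input densities of 43.67, 46.18 and 122.47. By total tags 2 h was above fasted in 26 of 39 sets. Peaks over miRNA genes were also wider at 2 h, with a median of 1660 bp against 1280 bp in fasted. Over all peaks the median width was likewise greater at 2 h, 720 bp against 625 bp in fasted. The part of width in the higher tags was not tested.

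By presence alone, the 2 h list had the most genes to itself. Besides the 47 genes at all 3 times, 55 lay under NONO peaks at 2 times and 93 at 1 time. It held 58 genes that neither other NONO list reached, against 16 for fasted and 19 for 10 h, and it is the longest list. Shared by fasted and 2 h but not 10 h were 28 genes, by both re-fed times but not fasted 24, and by fasted and 10 h but not 2 h 3. Of the 195 genes under any NONO peak, 155 had no IgG peak over them. The like counts over other genes were not computed for these sets. Short genes also leave less room for an IgG peak than long ones, so the counts describe these genes alone.

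The IgG list had miRNA peaks of its own. It covered 36 miRNA genes that no NONO peak reached, and the like count over other genes was not computed. After the Mir30a and Mir30c-2 peak, highly tagged miRNA peaks of this list lay over Gm26377 in Eef1a1 with 380.1 normalised tags, Gm44456 with 189.0 and Mir143 with 147.4. Normalised to the library without the Rn7sk peak, the IgG median over miRNA genes was 37.9 normalised tags, close to the 38.0 of the fasted list.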

How the data were processed

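RNA immunoprecipitates with anti-NONO or IgG and their inputs were sequenced from liver nuclei, with a stranded total RNA kit per the labels' protocols. Per the submitters' processing notes, reads were handled with STAR 2.4.0k, FastQC 0.11.2 and HOMER on mm10, and alignment settings are not given in the sources used here. HOMER compared each immunoprecipitate with its input, with a peak size of 500 bp, a joining distance of 1000 bp and the strands pooled, per the file headers. A peak needed 2-fold over input and 11 tags (8 in the IgG list). The deposited signal is the authors' tag number in a peak per 10000000 library tags. The deposited fold is the authors' ratio over input, and the deposited score is HOMER's peak score, per the file headers.

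Peaks were laid on GENCODE M21 miRNA genes with an overlap of 1 bp. A host is a same-strand gene that holds the hairpin. Distance is hairpin centre minus peak centre on the hairpin's strand. Shares have exact Clopper-Pearson 95% intervals and medians exact order-statistic intervals, which cover counting error only. Alternatives were a fold of 3, lists of equal length, whole-hairpin overlap, Mir symbols alone, an IgG margin of 1000 bp, IgG peaks of at least 11 tags, IgG tags without Rn7sk and, added later, no peaks over 5000 bp and host ranks by density. Named genes were those at all 3 times, the most tagged IgG-free and IgG peaks, members of the role lists, those nearest a peak centre and 10 liver miRNAs; some are summarised by number, and 1 is not reported here. Members and lists were chosen with earlier results of these data known. Overlaps were tested on simulated data. Python 3.11.15, numpy 2.4.6, pandas 2.3.3, scipy 1.17.1 and matplotlib 3.10.9 were used.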

Additional observations from a re-analysis of the deposited data

How the results depend on the processing

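No paired analysis was possible because there was a single library per group, which also means that none could be left out. Requiring 3-fold over input changed most values. In the order fasted, 2 h, 10 h and IgG, peaks over miRNA genes then numbered 26, 56, 27 and 40, miRNA genes 29, 68, 30 and 44, and median normalised tags were 17.6, 25.9, 21.3 and 13.2. Genes under IgG-free peaks numbered 21, 46 and 25 in the NONO lists, genes at all 3 times 9, the IgG-free share of peaks was 66.1% at 2 h and 81.5% at 10 h, and the median distance at 10 h was 246 bp. With a margin of 1000 bp for IgG peaks, the IgG-free share was 41.3% in fasted and 42.1% at 2 h. Without Rn7sk in the library total, the IgG median was 37.9 normalised tags. Equal list lengths, whole-hairpin overlap, Mir symbols alone, IgG peaks of at least 11 tags and, added after seeing the data, no peaks over 5000 bp moved no other list-level value beyond its limit (1.5 times for counts, the 95% interval for shares and medians). Genes at all 3 times then numbered 34, 36, 40 and 40 where the setting applied, with 29, 30, 33 and 33 of them without an IgG peak. Without replicates, the times cannot be told apart from library-to-library variation.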
